A study of Mus musculus with 6 samples.

Results

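Oxidative phosphorylation subunits are the proteins that build the respiratory chain complexes I to IV and the ATP synthase, complex V. Their transcripts were compared between Mir137-/- and Mir137+/+ mice, in the liver at postnatal day 14. Members were taken by gene symbol: every gene on the array named Nduf (without the Ndufaf assembly factors), Uqcr, Atp5 or Cox with an isoform number of the complex IV subunits, together with the Sdh genes and Cyc1. This gave 83 of the 18193 genes tested, 34 in complex I, 4 in complex II, 9 in complex III, 19 in complex IV and 17 in complex V. Complex IV here includes Ndufa4, a subunit now placed there, its relative Ndufa4l2 and Cox7a2l, a factor that joins complexes III and IV. Each genotype had 3 mice, with 1 whole-genome Affymetrix array per liver. Mir137-/- mice lacked miR-137 in every cell from the germline on, and Mir137+/+ mice carried the intact alleles. Both genotypes came from matings of heterozygous Mir137+/- parents, and the allele was made by Cre recombination in embryonic stem cells whose clones were crossed into C57BL/6 mice. No other treatment was given. The labels call the arrays of a genotype biological replicates, and litters are not given.

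Complexes I and II pass electrons from NADH and succinate to ubiquinone, complex III passes them to cytochrome c, and complex IV passes them to oxygen. The proton gradient that complexes I, III and IV build drives ATP synthesis by complex V. Liver cells are rich in mitochondria and use this ATP for gluconeogenesis, urea synthesis and other biosynthesis. Most subunits are encoded in the nucleus, and the core of each complex except complex II also holds subunits encoded by mitochondrial DNA. The mitochondrially encoded subunits were not analysed here, since no probe set carried their symbols. Ndufs6, Ndufa11 and Cox7b were not analysed here either.

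The RNA removed in Mir137-/- mice and the promoter sites of members with the clearest differences are shown first. The mature miR-137-3p, read at chr3:118433901-118433923 on the plus strand, has its seed (bases 2 to 8) in capitals.
mmu-miR-137-3p: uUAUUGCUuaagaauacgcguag
Nuclear genes for respiratory subunits are known for promoter sites of NRF1 and of the ETS factor GABP, also called NRF2. RefSeq promoter windows (GRCm38.p6, 250 bases before to 50 after each start) matched 67 of the 83 members, in 72 windows. The ETS core CCGGAAG lay in 23.6% of the members' windows, against 8.86% of all 32851 windows. The NRF1 palindrome GCGCATGCGC lay in 5.56% of the members' windows, against 0.971% of all windows. CCAAT lay in 40.3% of the members' windows, against 37.4% of all windows, and TATAAA in 12.5%, against 13.6%. A YY1 motif, spelled by the capitals of the Ndufs7 site, lay in 4.17%, against 0.633%, in the windows of Ndufs7, Ndufa9 and Ndufs4. These matches lay 24, 29 and 35 bases after the transcription start. The motif holds the letters ATG, and whether these are the start codon of the protein was not tested. All motifs were searched on both strands, and no motif contains another. Of the 5 members that fell in Mir137-/- liver (given below), 3 held an ETS match, and Atp5k also held the NRF1 palindrome. These sites are printed on the gene's own strand with the match in capitals, followed by Uqcr11, the complex III member with the lowest difference, and by Ndufs7, the lowest of the members with the YY1 motif.
Ndufs8 ETS at chr19:3912740-3912769: taggctccgcCTTCCGGttgaaccgcatct
Ndufb6 ETS at chr4:40279634-40279663: cgtccttgttCTTCCGGtcccctcccctac
Atp5k ETS at chr5:108434368-108434397: ctcagttgagCTTCCGGcgcgaaggtcacg
Atp5k NRF1 at chr5:108434430-108434459: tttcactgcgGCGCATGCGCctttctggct
Uqcr11 ETS at chr10:80406868-80406897: tctctcctccCCGGAAGtagatgtcaatgt
Ndufs7 YY1 at chr10:80249463-80249492: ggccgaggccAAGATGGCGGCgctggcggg
The other windows with the NRF1 palindrome were those of Uqcrc1, Cox6a1 and Atp5g2. None of these 3 passed the test. The median log2 difference was -0.16 over the 17 members with an ETS match and -0.09 over the 50 without one. For the YY1 motif it was -0.16 over 3 members with it and -0.10 over 64 without. For NRF1 it ran the other way, at -0.023 over 4 with the palindrome and -0.10 over 63 without, and for TATAAA at -0.077 over 8 and -0.10 over 59. For CCAAT both medians were -0.10 (28 with and 39 without). These are matches of letters and a description only.

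Some arrays held transcripts that the labels do not account for. Xist, transcribed from the silenced X of females, read 10.91 and 10.81 on Mir137+/+ replicates 2 and 3 but only 3.66 to 4.24 on all others, whereas the methods describe males. The Y-linked Eif2s3y read 2.06 and 2.51 on those arrays and 8.46 to 8.62 on all others. Kdm5d and Uty, also Y-linked, read 1.77 to 2.15 there and 6.08 to 7.23 elsewhere. Those Mir137+/+ arrays thus read as female and all others as male. The main fit has no term for sex, so it cannot fully separate genotype from sex. Among 18 skeletal muscle genes the median deviation from the Mir137+/+ mean was 3.01 for Mir137-/- replicate 1, and no other array went past 0.14. Among 18 exocrine pancreas genes it was 2.61 for Mir137-/- replicate 2 and 1.28 for Mir137+/+ replicate 2, with the remaining arrays between -0.79 and -0.53. Hepatocyte markers were high throughout, at mean levels of 12.91 to 12.94 on Mir137-/- and 12.95 to 12.98 on Mir137+/+ arrays. Single markers went both ways. Hnf4a, Cps1 and Fgb were lower on every Mir137-/- array (-0.34, -0.30 and -0.11), and Apob and Ahsg were higher (0.29 and 0.09). None of these passed an adjusted p below 0.05. Alb and Apoa1 lay near the highest value of each array, where a change is hard to see. In whole liver RNA, fewer cells of a type and less RNA per cell cannot be told apart. No probe set was named Mir137, so these data do not measure its loss.

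The subunit transcripts differed little between the genotypes, and the differences that passed the test all ran downwards. At a Benjamini-Hochberg adjusted p below 0.05 by limma, 5 members fell in Mir137-/- liver and 0 rose, beside 6.9% of all genes lower and 5.06% higher. The 5 members were 6.02% of 83, so this share is near that of all genes. They were Ndufc2, Ndufs8 and Ndufb6 of complex I, Cox5a of complex IV and Atp5k of complex V. None of the 83 also passed the 1.5-fold threshold of the methods, beside 3.34% of all genes lower and 2.34% higher, or 5.67% in either direction. At an unadjusted p below 0.05, 14 members were lower, or 16.9%, beside 14.6% of all genes, and 0 were higher, beside 12.2%.

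Small shifts were spread over many members. The log2 difference, Mir137-/- minus Mir137+/+, lay below 0 for 63 members and above 0 for 19, that is below 0 for 75.9% beside 49% of all genes, and it was 0 for Cox7b2. The median difference was -0.087, against 0.0033 over all genes. All 3 Mir137-/- arrays were below all 3 Mir137+/+ arrays for 24 members, or 28.9%, beside 17.4% of all genes, and above them for 2 members, Atp5g2 and Cox7a2l, beside 14.9%. The 95% interval of the difference stayed within 1.5-fold in both directions for 80 members, or 96.4%, beside 75.8% of all genes. The exceptions were Cox6a2, Cox7a1 and Cox8b, whose Mir137-/- arrays spread widely. Members are read from the same 6 livers and are not independent of each other. The shares of all genes are not matched for brightness, since 72 of the 83 members had a mean of 8 or more. Without the 40% dimmest genes, 79.7% of members lay below 0, beside 54% of all genes.

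**Figure D1:**
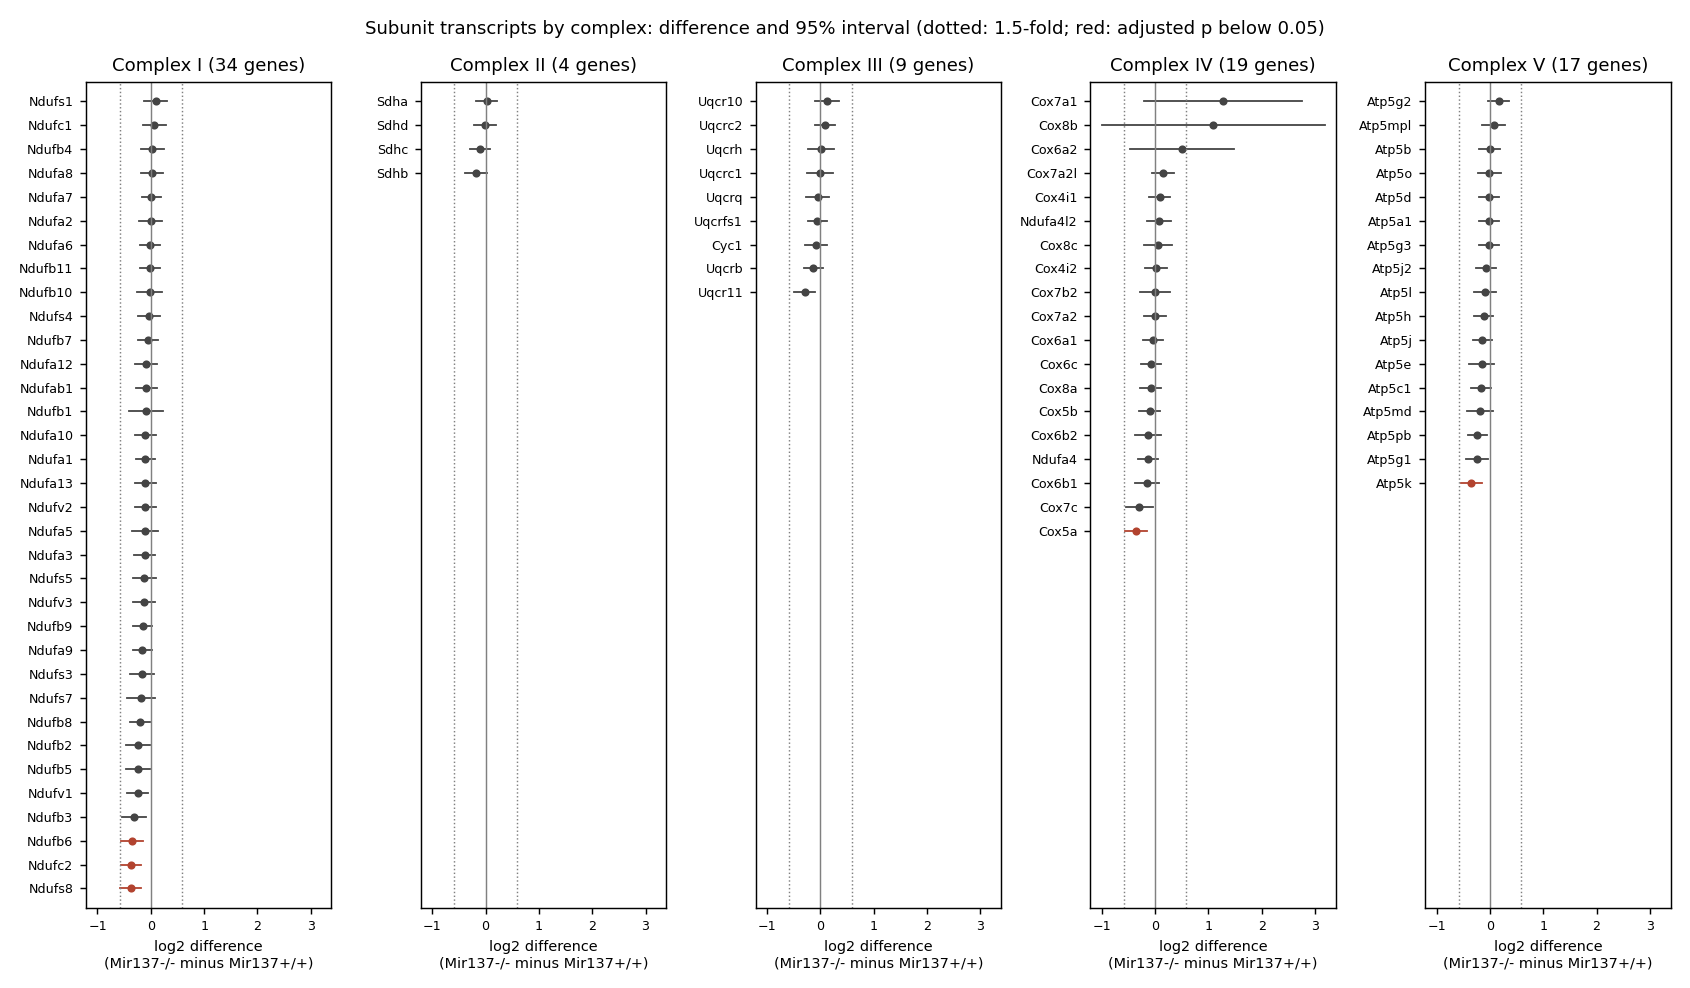
Log2 difference (Mir137-/- minus Mir137+/+, x axis) of each of the 83 members, by complex, with the 95% interval of the limma fit as a bar; dotted lines mark 1.5-fold and red marks an adjusted p below 0.05. Complexes I and V lie mostly left of 0 (29 of 34 and 15 of 17, beside 49% of all genes). Only Cox6a2, Cox7a1 and Cox8b have intervals that reach past 1.5-fold.

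Complex I, the entry point for NADH, held 3 of the 5 members that fell and 34 of the 83 members. These 3 of 34 stand beside 6.9% of all genes lower. The 34 measured members had a median difference of -0.105 and a range of -0.38 to 0.09. Of these, 29 were below 0 and 5 above, that is 85.3% below 0, beside 49% of all genes. Ndufs8, a core subunit that carries iron-sulphur clusters on the path to ubiquinone, was at 10.89, 10.92 and 10.96 on the Mir137-/- arrays and at 11.29, 11.24 and 11.38 on the Mir137+/+ arrays. Every Mir137-/- value was below every Mir137+/+ value, and the values within a genotype lay close together. Ndufs8 fell by 0.38 (SE 0.08, adjusted p = 0.0243), a decrease to 0.768 of the Mir137+/+ level. Ndufc2, an accessory subunit of the membrane arm, had 11.00, 10.98 and 10.96 in Mir137-/- and 11.33, 11.31 and 11.43 in Mir137+/+ liver. These groups were as clearly apart, and Ndufc2 fell by 0.38 (SE 0.08, adjusted p = 0.0233). Ndufb6, another accessory subunit of the membrane arm, had 9.99, 10.13 and 10.19 in Mir137-/- and 10.40, 10.43 and 10.53 in Mir137+/+ liver, and fell by 0.35 (SE 0.09, adjusted p = 0.0452). Its Mir137-/- arrays were again all the lower ones.

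The core subunits, which hold the flavin and the iron-sulphur clusters or frame them, did not move as one. Of the 6 that were measured, 5 lay below 0 and 1 above, with a median of -0.175. Ndufv1, which binds NADH and the flavin, was at 10.33, 10.45 and 10.28 in Mir137-/- and 10.59, 10.56 and 10.65 in Mir137+/+ liver. Its groups did not overlap, but the difference of -0.25 did not pass (adjusted p = 0.109). Ndufs7, which carries the last cluster before ubiquinone, was at 9.75, 10.07 and 9.70 against 10.03, 10.04 and 10.01. Mir137-/- replicate 2 was the highest of these 6 values, and the difference was -0.19 (adjusted p = 0.343). Ndufs3 differed by -0.16 and Ndufv2 by -0.11, with adjusted p of 0.339 and 0.487. Other bright probe sets of Ndufv2 were at -0.27 and -0.21, lower on every Mir137-/- array. Neither passed over all probe sets (adjusted p = 0.158 and 0.293). The other bright probe set of Ndufs7 was at -0.077, with overlap. Ndufs1, the largest subunit, had the highest difference of complex I, with 9.94, 10.12 and 9.85 in Mir137-/- and 9.84, 9.89 and 9.91 in Mir137+/+ liver (0.09, adjusted p = 0.609), with groups that overlapped.

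Among the 28 accessory subunits, 24 lay below 0, or 85.7% beside 49% of all genes, and the median was -0.10. The 11 Ndufb members, which belong to the membrane arm, had a median of -0.15, with 10 below 0 (90.9%). At an unadjusted p below 0.05, 5 of the 11 were lower, beside 14.6% of all genes: Ndufb6, Ndufb3, Ndufb5, Ndufb2 and Ndufb8. After adjustment only Ndufb6 passed. Ndufb3 was at 9.14, 9.23 and 9.00 in Mir137-/- and 9.40, 9.39 and 9.53 in Mir137+/+ liver, without overlap (-0.32, adjusted p = 0.0712). The 12 Ndufa members of complex I ranged from -0.16 to 0.02 with a median of -0.093, and 0 of them passed. Ndufb11, the brightest of complex I, was nearly level at -0.017 (adjusted p = 0.926). Ndufb4 was read only by a dim probe set, at 3.16 to 3.39 on all arrays. Whether the Ndufb members differ from the others was not tested.

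Complex II, succinate dehydrogenase, also serves the citric acid cycle and has no mitochondrially encoded subunit. None of its 4 genes passed. Sdhb, the iron-sulphur subunit, had the lowest difference, with 10.88, 11.00 and 10.83 in Mir137-/- and 11.09, 11.00 and 11.17 in Mir137+/+ liver. The groups met at 11.00, on replicate 2 of each, and the difference was -0.18 (95% interval -0.39 to 0.03, adjusted p = 0.248). Sdha, the flavoprotein that oxidizes succinate, differed by 0.02, and Sdhc and Sdhd, which anchor the enzyme in the membrane, by -0.10 and -0.013. Sdha was read by another bright probe set at -0.18, so its direction depends on the probe set.

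Complex III had a median of -0.05 over 9 members, and 0 passed. Of these, 6 were below 0 and 3 above (66.7% below 0, beside 49% of all genes). Uqcr11, a small accessory subunit, was at 10.78, 10.81 and 10.69 in Mir137-/- and 11.06, 10.97 and 11.12 in Mir137+/+ liver. The groups were separate by more than the spread within either, at -0.29 (SE 0.09, adjusted p = 0.0680). Uqcrb, a ubiquinone-binding subunit and the brightest of complex III, was at 12.76, 12.71 and 12.75 against 12.91, 12.87 and 12.84. These groups did not overlap either, with a difference of -0.13 (adjusted p = 0.326). The catalytic Rieske protein Uqcrfs1 and cytochrome c1, Cyc1, were at -0.057 and -0.077. Uqcr10, at 0.12, had the highest difference of the complex (adjusted p = 0.491). Its other bright probe sets were at -0.18 and -0.07, so that its direction, too, depends on the probe set. The same held for the other members above 0, Uqcrc2 (0.08 and -0.0067) and Uqcrh (0.017 and -0.06).

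Complex IV, cytochrome c oxidase, held 1 member that fell among its 19, beside 6.9% of all genes lower. Cox5a, which sits on the matrix side of the catalytic core, was at 11.72, 11.84 and 11.74 in Mir137-/- and 12.03, 12.21 and 12.13 in Mir137+/+ liver. The highest Mir137-/- value stayed below the lowest Mir137+/+ value, and Cox5a fell by 0.36 (SE 0.09, adjusted p = 0.0384). Cox7c, read by dim probe sets, was at 6.08, 6.32 and 6.01 against 6.54, 6.37 and 6.39 (-0.30, adjusted p = 0.124). Cox6c and Ndufa4 also had groups that did not overlap, at -0.073 and -0.13. Those of Cox6c were only just apart (11.48 against 11.49), and its other bright probe set overlapped, at -0.10. Cox4i1, the partner of Cox5a in the assembled enzyme, was at 11.86, 11.91 and 11.81 in Mir137-/- and 11.80, 11.68 and 11.85 in Mir137+/+ liver, with overlap (0.083, adjusted p = 0.599). Cox7a2l, the supercomplex factor, was at 10.14, 10.04 and 9.93 against 9.89, 9.87 and 9.92. Its groups were just apart, and the difference of 0.14 did not pass (adjusted p = 0.352).

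**Figure D2:**
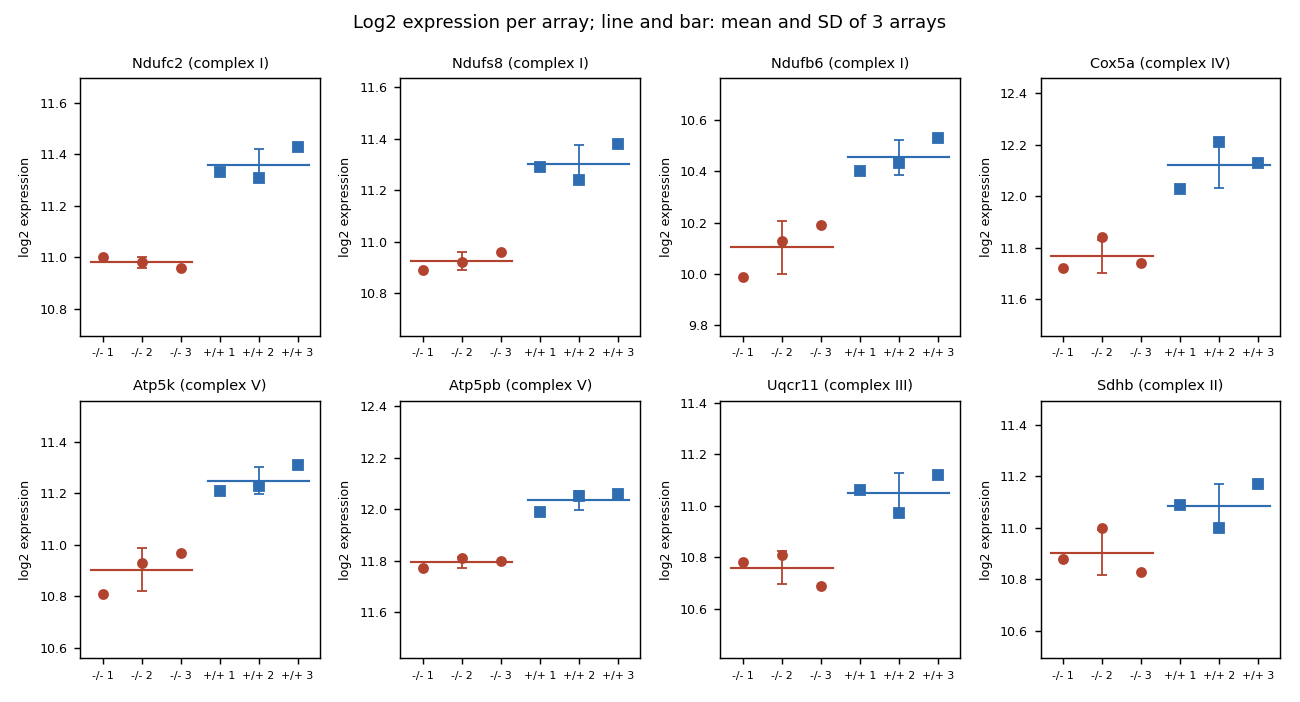
Log2 expression of the 5 members that fell and of Atp5pb, Uqcr11 and Sdhb on each array (y axis, 1 log2 unit in every panel), with Mir137-/- replicates as circles and Mir137+/+ replicates as squares; lines and bars are the mean and SD of 3 arrays. The genotypes are apart in all panels but that of Sdhb, where replicate 2 of each genotype meets at 11.00.

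Tissue isoforms set the width of complex IV. Cox6a2, Cox7a1 and Cox8b are the muscle and heart forms of subunits whose liver forms are Cox6a1, Cox7a2 and Cox8a, and Cox7a1 and Cox8b are also known from brown fat. Cox8b was at 8.23, 4.78 and 4.25 in Mir137-/- and 4.41, 4.57 and 5.02 in Mir137+/+ liver. Cox6a2 was at 7.23, 5.72 and 5.36 against 5.74, 5.45 and 5.59. In both, replicate 1 of Mir137-/- stood alone above all other arrays, which overlapped. Cox7a1 was at 7.14, 5.89 and 4.17 in Mir137-/- and 4.26, 4.22 and 4.89 in Mir137+/+ liver, so that replicates 1 and 2 of Mir137-/- were the highest and replicate 3 the lowest of all.

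None of these isoforms passed, with differences of 1.09 for Cox8b, 0.51 for Cox6a2 and 1.28 for Cox7a1 (adjusted p = 0.501, 0.497 and 0.252). The same Mir137-/- replicate 1 carried the skeletal muscle list at 3.01, with Acta1, the actin of skeletal muscle, at 11.38 there and 4.68 to 5.84 elsewhere. Without that array the differences were -0.15 for Cox8b, -0.053 for Cox6a2 and 0.57 for Cox7a1. Without Mir137-/- replicate 3 instead, Cox7a1 was at 2.06 and passed (adjusted p = 0.0208). On Mir137-/- replicate 2 the skeletal muscle list was at 0.14 while Cox7a1 was at 5.89. Over 7 heart muscle genes the median was 0.08 on Mir137-/- replicate 1 and between -0.06 and 0.18 elsewhere. Over 6 brown fat genes it was 0.21 there and between -0.23 and 0.19 elsewhere. These medians hide genes that stood apart. Myl2 of the heart list was at 7.38 on Mir137-/- replicate 1 and 3.54 to 4.03 elsewhere. Cidea of the brown fat list was at 5.28 there and 3.10 to 3.92 elsewhere. Myl4 and Elovl3 of these lists were lower on every Mir137-/- array (-1.18 and -0.84). Ppara, in the brown fat list, was bright on all arrays, at 10.11 to 10.48. Ucp1, which defines brown fat, was at 4.86, 3.73 and 3.42 on Mir137-/- arrays and at 3.66, 3.31 and 4.11 on Mir137+/+ arrays. The part of other tissues in the Cox7a1 values of replicate 2 was not tested.

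The liver isoforms were bright, and none passed. Cox6a1, the brightest member of complex IV, was at 12.77, 12.81 and 12.67 in Mir137-/- and 12.77, 12.78 and 12.83 in Mir137+/+ liver. Cox8a was at 10.76, 10.93 and 10.82 against 10.94, 10.88 and 10.95, with overlap. Their differences were -0.043 and -0.087, and that of Cox7a2 was -0.0033, with intervals that kept within 0.28 of 0 on the negative side and 0.20 on the positive side. Other bright probe sets lay lower on every Mir137-/- array for Cox6a1, at 11.30, 11.40 and 11.31 against 11.46, 11.50 and 11.62 (-0.19), and for Cox8a, at 10.72, 10.84 and 10.76 against 10.96, 10.89 and 10.95 (-0.16). Neither passed over all probe sets (adjusted p = 0.284 and 0.351). The testis forms Cox6b2, Cox7b2 and Cox8c differed by -0.13, 0 and 0.06, and Cox4i2 and Ndufa4l2, which respond to low oxygen, by 0.013 and 0.073. Over all 19 members the complex IV median was -0.0033. Over the 11 that are no muscle, testis or low-oxygen form it was -0.087, with 9 below 0 and 2 above (81.8% below 0, beside 49% of all genes).

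**Figure D3:**
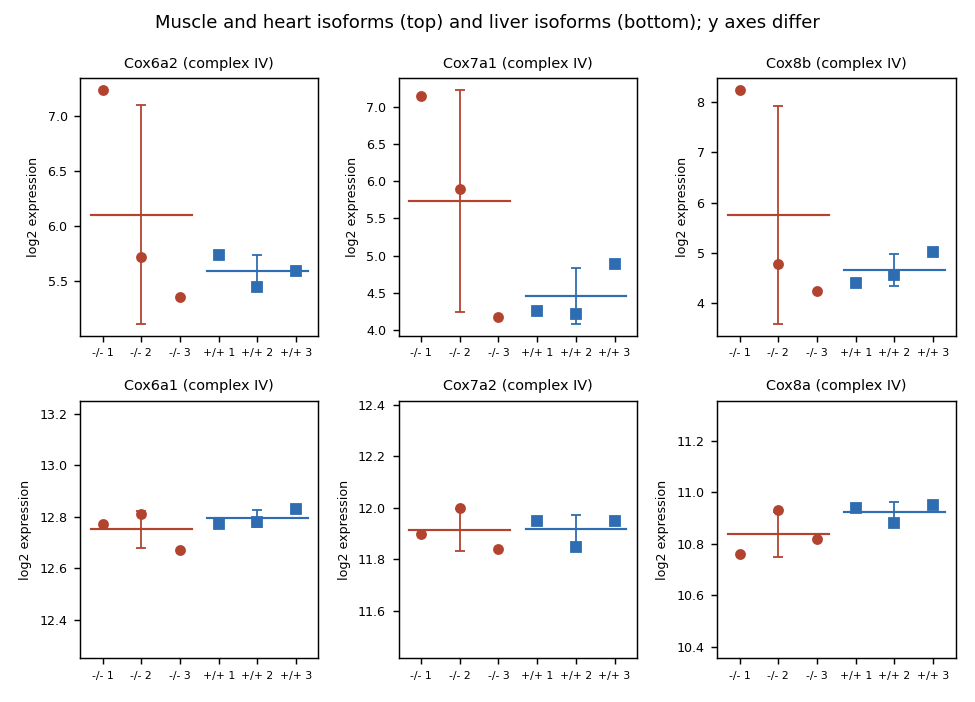
Log2 expression per array (y axes differ between panels) of the muscle and heart isoforms Cox6a2, Cox7a1 and Cox8b in the top row and of the liver isoforms Cox6a1, Cox7a2 and Cox8a in the bottom row, Mir137-/- as circles and Mir137+/+ as squares, with mean and SD of 3 arrays. Mir137-/- replicate 1 stands out for all 3 muscle isoforms, at 7.23, 7.14 and 8.23, and for none of the liver isoforms.

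Complex V had a median of -0.10 over 17 members, with 15 below 0 and 2 above (88.2% below 0, beside 49% of all genes). Of the 17, 1 fell, beside 6.9% of all genes lower. Atp5k, subunit e of the membrane part, which helps to join ATP synthase into dimers, was at 10.81, 10.93 and 10.97 in Mir137-/- and 11.21, 11.23 and 11.31 in Mir137+/+ liver. The groups were well apart, and Atp5k fell by 0.35 (SE 0.09, adjusted p = 0.0384). Of the 5 membrane accessory subunits, 4 were below 0, and Atp5md was at 10.68, 10.78 and 10.70 against 10.82, 10.81 and 11.10 (-0.19, adjusted p = 0.295). Its groups were apart by less than the spread within either.

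The peripheral stalk holds the catalytic head still against the rotor, and its 4 subunits were all below 0. Atp5pb, subunit b, was at 11.77, 11.81 and 11.80 in Mir137-/- and 11.99, 12.05 and 12.06 in Mir137+/+ liver. The arrays of each genotype lay close together and the groups were apart, yet the difference of -0.24 did not pass (SE 0.08, adjusted p = 0.0890). Atp5j and Atp5h, coupling factor 6 and subunit d, differed by -0.14 and -0.12 without overlap, while Atp5o, the stalk's cap on the head, differed by -0.01. The other bright probe set of Atp5h was at -0.03 and that of Atp5o at -0.15, both with overlap. None of the 5 members of the catalytic head passed. Atp5b, the catalytic beta subunit, had 12.07, 12.00 and 12.05 in Mir137-/- and 12.09, 11.95 and 12.10 in Mir137+/+ liver, and Atp5a1 and Atp5d differed by -0.02 and -0.013. Atp5e, the epsilon subunit, differed by -0.16 with overlap (adjusted p = 0.378). Atp5c1, the rotating gamma subunit, was at 11.64, 11.56 and 11.48 against 11.73, 11.72 and 11.74, without overlap (-0.17, adjusted p = 0.239).

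The c-ring is built from 1 protein encoded by 3 genes, and these genes did not run the same way. Atp5g1 was at 10.39, 10.49 and 10.41 in Mir137-/- and 10.69, 10.57 and 10.75 in Mir137+/+ liver, lower on every Mir137-/- array (-0.24, adjusted p = 0.123). Atp5g2 was at 10.53, 10.63 and 10.54 against 10.45, 10.31 and 10.45, higher on every Mir137-/- array (0.16, adjusted p = 0.275). Atp5g3, the brightest member of complex V, overlapped at 12.45, 12.39 and 12.34 against 12.38, 12.42 and 12.44. None passed, and the difference between the genes was not tested.

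The downward shift was not equal on the 3 Mir137-/- arrays. The median deviation of the 83 members from their Mir137+/+ means was -0.11, -0.023 and -0.12 on Mir137-/- replicates 1, 2 and 3 and -0.0033, -0.043 and 0.037 on the Mir137+/+ arrays. Replicate 2 of Mir137-/- thus lay inside the range of the Mir137+/+ arrays, and the others lay below it. In complex I the medians were -0.14, -0.02 and -0.145 against -0.01, -0.03 and 0.04, and in complex V -0.11, -0.05 and -0.10 against 0, -0.05 and 0.05. By count, 60, 47 and 70 members were below their Mir137+/+ mean on the Mir137-/- arrays, and 43, 67 and 14 were on the Mir137+/+ arrays. Replicate 2 of both genotypes was the pair with pancreas transcripts. Without those arrays the medians were -0.115 over all members, -0.17 in complex I and -0.08 in complex IV, and 69 members were below 0. The part of pancreas transcripts in this pattern was not tested beyond these values.

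**Figure D4:**
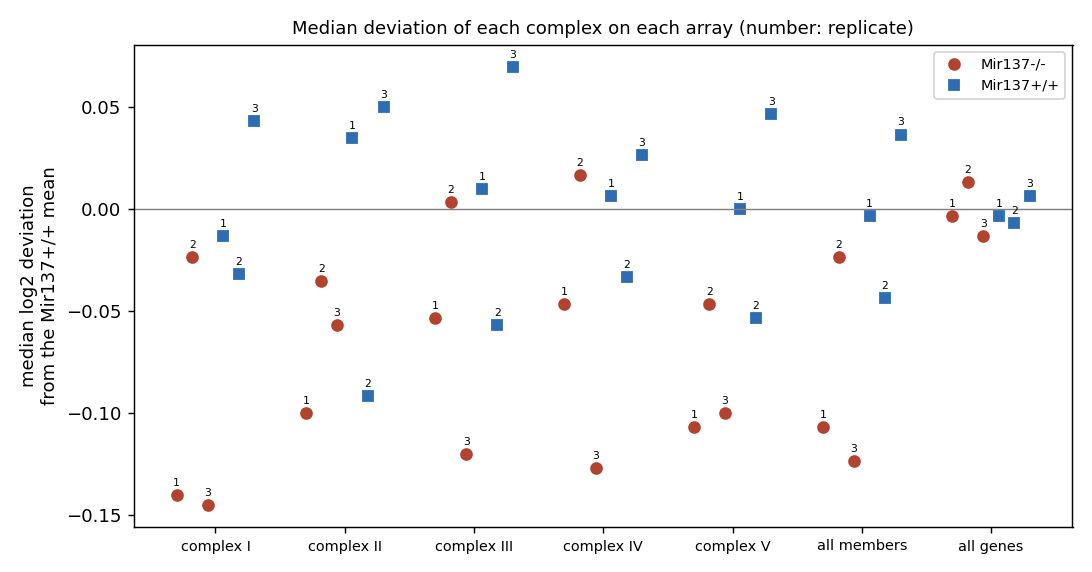
Median log2 deviation from the Mir137+/+ mean (y axis) over the members of each complex, all 83 members and all 18193 genes, for each array, with Mir137-/- as circles and Mir137+/+ as squares and the replicate number above each point. Mir137-/- replicates 1 and 3 lie below every Mir137+/+ array in complexes I and V, and Mir137-/- replicate 2 lies among the Mir137+/+ arrays.

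The 5 differences that passed were close to the threshold, and the calls depended on the arrays used and on the method. Leaving out any 1 array left 0 members lower, except that Ndufs8 remained without Mir137-/- replicate 3 (adjusted p = 0.0423), beside 3.25% to 5.89% of all genes lower in these fits. Without the Mir137+/+ arrays that carried Xist, and with sex as a term, 0 passed, beside 0.401% and 1.42% of all genes lower. With all 6 arrays kept, Ndufb6, Cox5a and Atp5k did not pass a per-gene t-test after adjustment (adjusted p = 0.0797, 0.0655 and 0.0574), and Ndufb6 did not pass after quantile normalization (adjusted p = 0.0531). Atp5k did not pass on averaged probe sets (adjusted p = 0.0585) or without the _s_at and _x_at types (adjusted p = 0.163). Of 20 alternatives Ndufs8 lost its call in 9, Ndufc2 in 10, Cox5a in 11, Ndufb6 in 12 and Atp5k in 13. Over all alternatives the difference ranged from -0.40 to -0.32 for Ndufc2, from -0.41 to -0.33 for Ndufs8, from -0.39 to -0.29 for Ndufb6, from -0.40 to -0.26 for Cox5a and from -0.38 to -0.27 for Atp5k, below 0 throughout. Other probe sets of these genes ran the same way. The 3 bright probe sets of Ndufc2 (mean of 8 or more) were at -0.38, -0.38 and -0.39, and the 5 of Ndufs8 ranged from -0.39 to -0.29. Cox5a had -0.36, -0.26 and -0.25, Atp5k -0.35, -0.28 and -0.27, and Ndufb6 -0.35 and -0.28. Tested over all 45037 probe sets, 6 of 127 bright probe sets of members were lower, all of Ndufc2 or Ndufs8, and 0 were higher. Of all probe sets, dim ones included, 4.36% were lower and 3.37% higher. Of 38 members with more than 1 bright probe set, 30 were below 0 on all of them, 2 were above 0 on all and 6 were mixed. Probe sets of a gene read the same RNA, and this count has no share of all genes beside it.

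Genes that assemble the complexes were also mostly below 0. Of 47 listed assembly factors 44 were measured, with a median difference of -0.18. Of the 44, 32 were below 0, beside 49% of all genes. At an adjusted p below 0.05, 4 of the 44 fell and 0 rose, beside 6.9% of all genes lower and 5.06% higher. Timmdc1, a membrane factor for complex I assembly, was at 6.07, 6.10 and 6.17 in Mir137-/- and 6.84, 6.79 and 6.94 in Mir137+/+ liver. Coa6, which serves copper delivery to complex IV, was at 8.89, 8.86 and 8.88 against 9.52, 9.50 and 9.70. Both gaps were wider than the spread within a genotype, and both genes fell by more than 1.5-fold, by 0.74 (adjusted p = 0.00186) and 0.70 (adjusted p = 0.00288). Without the Mir137+/+ arrays with Xist neither passed (adjusted p = 0.105 for Timmdc1 and 0.119 for Coa6), nor did Coa6 with sex as a term (adjusted p = 0.0644). Ndufaf4 and Ecsit, also factors for complex I, fell by 0.57 and 0.35 (adjusted p = 0.0280 and 0.0415). Whether assembly factors and subunits differ as groups was not tested.

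Of 10 listed electron carriers, carriers that exchange ATP, ADP and phosphate, and the ATPase inhibitor, 8 were measured. At an adjusted p below 0.05, 1 of the 8 rose and 0 fell, beside 5.06% of all genes higher and 6.9% lower. Slc25a4, the adenine nucleotide carrier typical of heart and muscle, was at 10.79, 10.54 and 10.39 in Mir137-/- and 9.82, 9.88 and 9.88 in Mir137+/+ liver. Every Mir137-/- array was higher, the one with muscle transcripts most of all. Slc25a4 rose by 0.71 (adjusted p = 0.00735) and by 0.61 without that array (adjusted p = 0.0149). It did not pass without the arrays with Xist (adjusted p = 0.175), with sex as a term (adjusted p = 0.0828), with a per-gene t-test after adjustment (adjusted p = 0.0583) or without the arrays with pancreas transcripts (adjusted p = 0.0758). Slc25a5, the form of most other tissues, differed by -0.11, and Cycs, cytochrome c, by -0.10. Etfdh, which feeds electrons from fatty acid oxidation to ubiquinone, was at 11.43, 11.46 and 11.57 against 11.31, 11.24 and 11.23 (0.23, adjusted p = 0.128).

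The other citric acid cycle enzymes were level as a list, with a median of 0.0017 over 12 of 13 and 0 that passed. Cs, citrate synthase, had the smallest p, at 9.11, 8.93 and 8.99 in Mir137-/- and 9.22, 9.36 and 9.34 in Mir137+/+ liver, without overlap (-0.30, adjusted p = 0.0736). Of 17 nuclear regulators of respiratory genes and mitochondrial DNA expression 15 were measured, with a median of -0.15, and 4 of the 15 fell, beside 6.9% of all genes. Tefm, an elongation factor of mitochondrial transcription, was at 6.69, 6.75 and 6.41 against 7.18, 7.31 and 7.20, and Tfb1m, which methylates mitochondrial ribosomal RNA, at 6.87, 7.33 and 7.03 against 7.62, 7.92 and 7.65. They fell by 0.61 and 0.65 (adjusted p = 0.0121 and 0.0233), with no overlap in either. Of 20 alternatives Tefm passed 15 and Tfb1m 12, and neither passed without the arrays with Xist (adjusted p = 0.263 and 0.342). Twnk, the mitochondrial DNA helicase, and Yy1, a transcription factor, fell by 0.43 and 0.49 (adjusted p = 0.0370 and 0.0304).

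Of the factors that name the promoter motifs, Yy1 was the one that passed. Its call, like those of Twnk, Ndufaf4 and Ecsit, was not followed through the alternatives. Nrf1 was at 0.087 (adjusted p = 0.681), and Gabpa and Gabpb1, the parts of the ETS factor GABP, were at -0.24 and 0.20 (adjusted p = 0.152 and 0.233). Ppargc1a, the coactivator that drives mitochondrial biogenesis, was at 9.19, 9.30 and 8.28 in Mir137-/- and 8.69, 8.23 and 8.64 in Mir137+/+ liver. Replicates 1 and 2 of Mir137-/- were the highest arrays and replicate 3 lay among the Mir137+/+ arrays, so that the difference of 0.40 was within the spread (adjusted p = 0.386).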

How the data were processed

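RNA from livers taken on postnatal day 14, of 3 Mir137-/- mice and 3 Mir137+/+ mice, was hybridized to Affymetrix Mouse Genome arrays, and groups were taken from the sample labels. The deposited table holds log2 values of 45101 probe sets, which the authors made by RMA with a baseline step according to the methods, whereas the submitters' processing notes name GCRMA without a version. Its values are levels, with array medians of 4.88 to 4.91, and were used without further normalization. Neither detection calls nor a genome build was given in the sources used here.

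Of 45037 probe sets without controls, 34945 had 1 gene symbol in the platform annotation, 932 had several and 9160 had none. Those with several were not used, among them 10 that name a member. Each gene was read by its brightest probe set, on the average of all 6 arrays. Genotypes were compared with limma 3.58.1 in R 4.3.3 (lmFit on group means, eBayes, no covariate), and p values, all two-sided, were adjusted over 18193 genes by the Benjamini-Hochberg method. The number of arrays limits the precision, and an exact test of 3 against 3 cannot go below p = 0.1. The fit was tested on simulated data. Counts and medians of a list carry no test.

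The members, the lists and the rules were chosen with earlier results of these data known. Named genes were, per complex, the 3 smallest p, the highest and lowest difference and the brightest member. To these came the core subunits of complex I, the Sdh genes, the tissue isoforms and, of each other list, the genes past both thresholds (adjusted p and 1.5-fold) and the 2 smallest p. Other genes named for passing the adjusted p alone, members named for their role or for groups that do not overlap, and the motifs, were picked after values were seen.

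Alternatives were a per-gene t-test, eBayes with trend and robust, quantile normalization, median centring, array weights (statmod 1.5.0), averaging a gene's probe sets, dropping the cross-hybridizing types (_s_at, _x_at), a filter on the 40% dimmest genes, symbols of the reference gene table, the replicate number as a block, each array left out, and fits for sex and pancreas transcripts. Because Xist was seen on Mir137+/+ arrays only, the sex fits set 3 Mir137-/- arrays against Mir137+/+ replicate 1, which is assumed to vary like the others.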

Additional observations from a re-analysis of the deposited data

How the results depend on the processing

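The count of members lower at an adjusted p below 0.05 was 5 as reported. It stayed at 5 with median centring, array weights and the reference table's symbols (6.98% to 7.39% of all genes). A per-gene t-test after Benjamini-Hochberg also gave 5, or 6.02% of members beside 2.88% of all genes. These were not the same 5, since Ndufb6, Cox5a and Atp5k did not pass it. The count was 4 with quantile normalization, averaged probe sets or without the _s_at and _x_at types (6.43% to 6.63% of all genes). It was 21 with a per-gene t-test unadjusted (25.3% of members beside 13.6% of all genes), 11 with eBayes with trend and robust (13.3% beside 9.33%) and 9 without the 40% dimmest genes (11.4% beside 15.1%). It was 0 without the 2 Mir137+/+ arrays with Xist (0.401% of all genes), 0 with sex as a term (1.42%), 0 without both arrays with pancreas transcripts (2.14%), and 0 to 1 with each array left out (3.25% to 5.89%). Members higher numbered 0 but for 1 with the unadjusted t-test (Atp5g2) and 0 to 1 with each array left out, where Cox7a1 without Mir137-/- replicate 3 was also the only member past 1.5-fold (0 to 1). Members below 0 numbered 55 to 69 with each array left out and 57 to 69 under the others.

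The median over all members ranged from -0.115 to -0.052. The median of complex I was -0.17 and that of complex IV -0.08 without both arrays with pancreas transcripts, and that of complex V was -0.02 without the _s_at and _x_at types. The median over all genes was -0.01 with median centring and -0.027 without the dimmest genes. With the arrays left out in turn, the medians spanned -0.155 to -0.083 in complex I, -0.13 to -0.063 in complex V and -0.053 to 0.013 in complex IV. Of 42 named genes under up to 20 alternatives, 0 values that had passed changed sign, 75 lost their call, 22 gained one, and 45 that had not passed changed sign. For results that changed, the cause was not tested.

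With the replicate number as a block, 0 members were lower and 0 higher, beside 4.91% and 3.54% of all genes. The labels do not say that a number pairs mice across genotypes. The deviations of same-numbered arrays from their group means correlated at 0.10, 0.23 and 0.025 for replicates 1, 2 and 3, and Mir137-/- replicates 1 and 2 matched their own number best, while replicate 3 matched Mir137+/+ replicate 1 best. Dim probe sets limit what can be said of the 11 members with a mean under 8, among them Ndufb4 and Cox7c.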
